A study of Homo sapiens with 9 samples.

Results

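ULBP1, CD274 and TAPBP are 3 genes through which immune cells read the surface of a tumor cell, and their transcripts were followed here in WM983B, an established human melanoma cell line. They were found as the probes of the value table whose gene symbol is one of these names, which gave 7 of 53617 probes, 1 for ULBP1 (probe 17013657), 1 for CD274 (probe 17083357) and 5 for TAPBP, and 3 of 14884 named genes. Cells were exposed for 24 h to 2.5 µM corin, to 2.5 µM MS-275 or to vehicle (DMSO), and 3 arrays were run per group, 9 in all. No genotype differs between the groups, and each inhibitor was given from a DMSO stock, so DMSO is common to all arrays. MS-275 (entinostat) inhibits class I histone deacetylases (HDACs), and corin is a hybrid that joins the benzamide unit of entinostat to a tranylcypromine analog directed at the demethylase LSD1. The labels write corin2, which was taken to be corin. A group with an LSD1 inhibitor alone was not analysed here, and all values come from 1 cell line at 1 dose and 1 time.

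ULBP1 is a ligand of NKG2D, an activating receptor of natural killer (NK) cells and cytotoxic T cells, and cells under stress display such ligands on their surface. CD274 encodes PD-L1, which binds the inhibitory receptor PD-1 on T cells, and interferon gamma is a well known inducer of it. TAPBP encodes tapasin, which bridges the peptide transporter TAP and MHC class I molecules while they are loaded with peptide for display to CD8 T cells. Melanoma cells commonly carry all of these systems, and PD-1 is a drug target in this tumor.

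The promoters of the 3 genes are shown because motifs of the factors that act on these systems can be read in them. RefSeq (GRCh38.p14) places the ULBP1 window at chr6:149963693-149963942 on the plus strand, the CD274 window at chr9:5450292-5450541 on the plus strand and the TAPBP window at chr6:33314079-33314328 on the minus strand, and each printed sequence is the 250 bases before the start site, read 5′ to 3′ on the strand of the gene. Capitals mark each match to a motif searched.
ULBP1: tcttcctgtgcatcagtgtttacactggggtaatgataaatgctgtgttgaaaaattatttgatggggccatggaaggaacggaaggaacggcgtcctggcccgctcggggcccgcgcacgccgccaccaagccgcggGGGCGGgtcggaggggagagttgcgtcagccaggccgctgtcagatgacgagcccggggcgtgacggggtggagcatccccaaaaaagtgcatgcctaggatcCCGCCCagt
CD274: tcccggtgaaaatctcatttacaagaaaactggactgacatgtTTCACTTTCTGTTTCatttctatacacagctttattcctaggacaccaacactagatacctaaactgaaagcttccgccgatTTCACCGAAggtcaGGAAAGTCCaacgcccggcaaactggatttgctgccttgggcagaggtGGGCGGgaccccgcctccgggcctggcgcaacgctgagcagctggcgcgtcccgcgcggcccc
TAPBP: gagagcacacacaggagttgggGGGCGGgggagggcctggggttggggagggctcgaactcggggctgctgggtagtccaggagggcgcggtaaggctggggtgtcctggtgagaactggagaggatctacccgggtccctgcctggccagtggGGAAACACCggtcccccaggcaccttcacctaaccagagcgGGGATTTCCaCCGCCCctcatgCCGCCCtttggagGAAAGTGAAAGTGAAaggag

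The motifs were searched on both strands over 300 bases, the 250 shown and the 50 after the start. The ISRE core GAAANNGAA, which interferon regulatory factors bind, had 2 overlapping matches in TAPBP at positions -20 to -6 from the start, 2 overlapping matches in CD274 at positions -207 to -193 and 0 in ULBP1, while 8.11% of the 35116 RefSeq promoters of this length hold at least 1. The interferon gamma activated site (GAS) TTCNNNGAA had 1 match in CD274 at -125 to -117 and is held by 7.66% of promoters. The NF-kB motif GGNNTTTCC had 1 match in CD274 and 2 in TAPBP, against 6.26% of promoters with any. ULBP1 held only 2 matches to the GC box GGGCGG in the printed bases, and its other 2 matches, to TATAAA, overlap each other within the 50 bases after the start. The GC box had 1 match in CD274 and 3 in TAPBP and is held by 45.0% of promoters, and TATAAA is held by 11.5%. The AP-1 motif TGANTCA, the CRE TGACGTCA, the amino acid response element TGATGNAA, the E-box CACGTG and CCAAT had 0 matches in the 3 windows, and 7.71%, 1.85%, 3.62%, 7.26% and 34.6% of promoters hold them. The printed bases hold 61.6% G and C with 20 CpG dinucleotides for ULBP1, 54.8% with 16 for CD274 and 65.2% with 10 for TAPBP, beside medians of 58.0% and 11 over the same 250 bases of all promoters. These letters describe the sequence, and no binding was measured on these arrays.

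The arrays (Affymetrix Human Gene 2.0 ST) give a log2 signal per probe, on which 1 unit is a 2-fold step, and the median signal of an array lay between 4.05 and 4.12. Changes are therefore relative to the other transcripts of the array, and because each array reads a whole culture, fewer cells with a transcript and less of it per cell cannot be told apart. The median difference over all named genes was -0.04 for corin minus vehicle, -0.03 for MS-275 minus vehicle and -0.03 for corin minus MS-275. Groups were compared with limma over the 14884 named genes, and calls required a fold of at least 2 together with a p under 0.05 after Benjamini-Hochberg adjustment. Both comparisons with vehicle share the same 3 vehicle arrays. Among markers of the melanocyte lineage, 8 of 9 could be read, and SOX10 and PMEL had vehicle means of 10.1 and 10.6. The mean log2 signal of these 8 markers was 8.81 to 8.89 on vehicle arrays, 8.47 to 8.63 with MS-275 and 6.93 to 7.02 with corin. By the limma call 6 of the 8 (SOX10, MLANA, TYR, TYRP1, MCAM and MITF) fell with corin against vehicle, where 7.61% of all named genes did. The MITF call was lost without vehicle replicate 1 (-0.98) and after quantile normalization (-0.91). Of 16 immune cell markers 8 could be read, with a mean log2 signal of 5.66 to 5.72 with vehicle, 5.91 to 5.97 with MS-275 and 6.07 to 6.12 with corin. Of these, CSF1R rose 5.29-fold and NCAM1 2.29-fold with corin, where 7.26% of all named genes were called higher. The other 6 were not called, and the rest of the list was not analysed here. With MS-275, 0 of the 8 were called, beside 3.03% of all named genes higher and 0.39% lower. At a limma adjusted p under 0.05 alone, 3 of the 8 were higher with MS-275, as were 14.2% of all named genes. LYZ, 1 of those 3, differed by 0.78, but its dimmer probe differed by -0.11. CD68 was the brightest of these 8, with means of 11.47, 11.44 and 11.26 for vehicle, MS-275 and corin. The samples were cultures of 1 melanoma cell line, and whether the lower lineage markers play a part in the results below was not tested.

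With corin, 2 of the 3 genes rose against vehicle (ULBP1 and CD274) and 1 fell (TAPBP), where 7.26% of all named genes were called higher and 7.61% lower. With MS-275, only CD274 was called (1 higher, beside 3.03% of all named genes) and 0 of the 3 were called lower (0.39% of all named genes). In limma without the fold, the differences of ULBP1 and CD274 were past an adjusted p of 0.05 upward with MS-275, as for 14.2% of all named genes, and that of TAPBP downward, as for 15.4%. At the same dose and time, corin exceeded MS-275 for ULBP1 and CD274, where 2.41% of all named genes were called higher, and TAPBP was called lower, where 3.64% were. For each gene the 3 arrays of a group lay apart from those of both other groups, in the order vehicle, MS-275, corin upward for ULBP1 and CD274 and downward for TAPBP. Of all named genes, 8.72% had non-overlapping groups in this order upward and 12.8% downward.

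**Figure D1:**
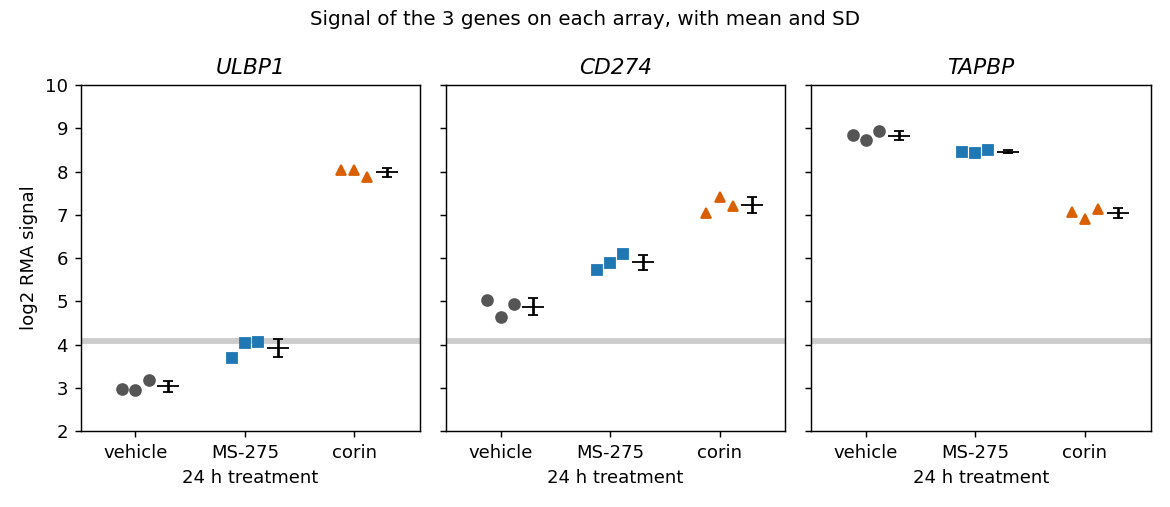
Log2 RMA signal of ULBP1, CD274 and TAPBP on each of the 9 arrays, with the group mean and SD beside the points and a grey line at the median signal of all probes. No group overlaps another, the corin arrays are the highest for ULBP1 and CD274 and the lowest for TAPBP, and the largest step between neighbouring groups is that of ULBP1 from MS-275 to corin.

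ULBP1 had a log2 signal of 2.98, 2.95 and 3.19 on the vehicle arrays, 3.69, 4.04 and 4.05 with MS-275, and 8.04, 8.04 and 7.86 with corin. The vehicle and MS-275 values all lay below the median signal of their arrays, and the corin values stood alone, 3.81 above the highest MS-275 array. The vehicle mean was 3.04 ± 0.13, the MS-275 mean 3.93 ± 0.21 and the corin mean 7.98 ± 0.10 (SD, n = 3). Corin exceeded vehicle by 4.94 (SE 0.115, 95% interval 4.69 to 5.20), a 30.7-fold rise with an interval of 25.8 to 36.6 and a limma adjusted p of 6.0e-11. Since a dim probe also reads background, a fold from such a level can understate the change in transcript. The gap between vehicle and MS-275 was far smaller, with 0.50 between their nearest arrays. MS-275 exceeded vehicle by 0.89 (interval 0.63 to 1.14), which is 1.85-fold at a limma adjusted p of 0.000145 and below the fold of 2 that a call needs. Without the lowest MS-275 array (replicate 1) this difference was 1.01 and was called. Corin exceeded MS-275 by 4.05 (interval 3.80 to 4.31), or 16.6-fold, at a limma adjusted p of 9.8e-10.

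Besides ULBP1, the NKG2D ligands ULBP3, MICB and MICA rose with corin, and ULBP2, RAET1E and RAET1L were not called. Of 8 genes listed, 7 could be read and RAET1G was not analysed here. Corin raised 4 of the 7 against vehicle (median difference 1.22), MS-275 raised 2 (median 0.57), and corin exceeded MS-275 in 1, ULBP1 itself (median 0.34), beside 7.26%, 3.03% and 2.41% of all named genes. None of the 7 was called lower by limma in any comparison, and at an unadjusted p under 0.05 also 0 were lower. In each of the 3 comparisons ULBP1, ULBP3, MICA and MICB were the 4 genes past the adjusted p upward, as were 23.4% of all named genes for corin against vehicle, 14.2% for MS-275 against vehicle and 17.4% for corin against MS-275. MICB is read here by its probe with the highest mean, and its other probes gave smaller differences in all 3 comparisons. The list includes ULBP1, and no test of the list as a whole was made.

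ULBP3, another GPI-anchored ligand of the family, read 6.95, 6.72 and 6.94 with vehicle, 7.93, 7.82 and 7.95 with MS-275, and 8.36, 8.42 and 8.46 with corin. Both inhibitors raised it and the groups did not overlap. The rise was 2.92-fold with corin (log2 difference 1.54, adjusted p 4.5e-08) and 2.04-fold with MS-275 (1.03, adjusted p 7.1e-06), the latter falling short of the fold, at 0.96, without vehicle replicate 2. MICB, a transmembrane ligand encoded in the MHC region, read 7.68, 7.73 and 7.89 with vehicle, 8.89, 8.83 and 8.84 with MS-275, and 9.10, 9.21 and 9.27 with corin. It rose 2.69-fold with corin and 2.12-fold with MS-275, although the mean of its 7 probes gave a difference of 0.99 for MS-275, just short of a call. MICA, its closest relative, read 7.68, 7.51 and 7.55 with vehicle, 8.11, 8.19 and 8.16 with MS-275, and 8.84, 8.74 and 8.82 with corin. Its rise with corin was 2.33-fold, and the MS-275 difference of 0.57 (1.49-fold, limma adjusted p 0.000261) was under the fold. For these 3 relatives corin and MS-275 differed by 0.51 for ULBP3, 0.65 for MICA and 0.34 for MICB, against the 4.05 of ULBP1. Each was past the adjusted p for the probe used and none was past the fold. The other MICB probes gave only 0.14 to 0.20 for corin minus MS-275. For corin minus vehicle they gave 1.10 to 1.26, below the 1.425 of the probe used.

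ULBP2, the nearest measured gene to ULBP1 on one side, read 5.37, 6.41 and 5.73 with vehicle, 5.59, 6.06 and 6.18 with MS-275, and 6.50, 5.13 and 6.05 with corin. The groups overlapped and the arrays of a group scattered widely (SD 0.53, 0.31 and 0.70), so the corin minus vehicle difference of 0.05 had an interval from -0.68 to 0.78. A change of ULBP2 inside this interval was not detectable with these arrays. RAET1E differed from vehicle by 0.04 with corin and 0.19 with MS-275, and RAET1L by 0.20 and 0.06, with limma adjusted p-values of 0.164 or more. RAET1L and the pseudogene RAET1K are dim and the family shares sequence, so how far their probes read each other's transcripts is uncertain.

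**Figure D2:**
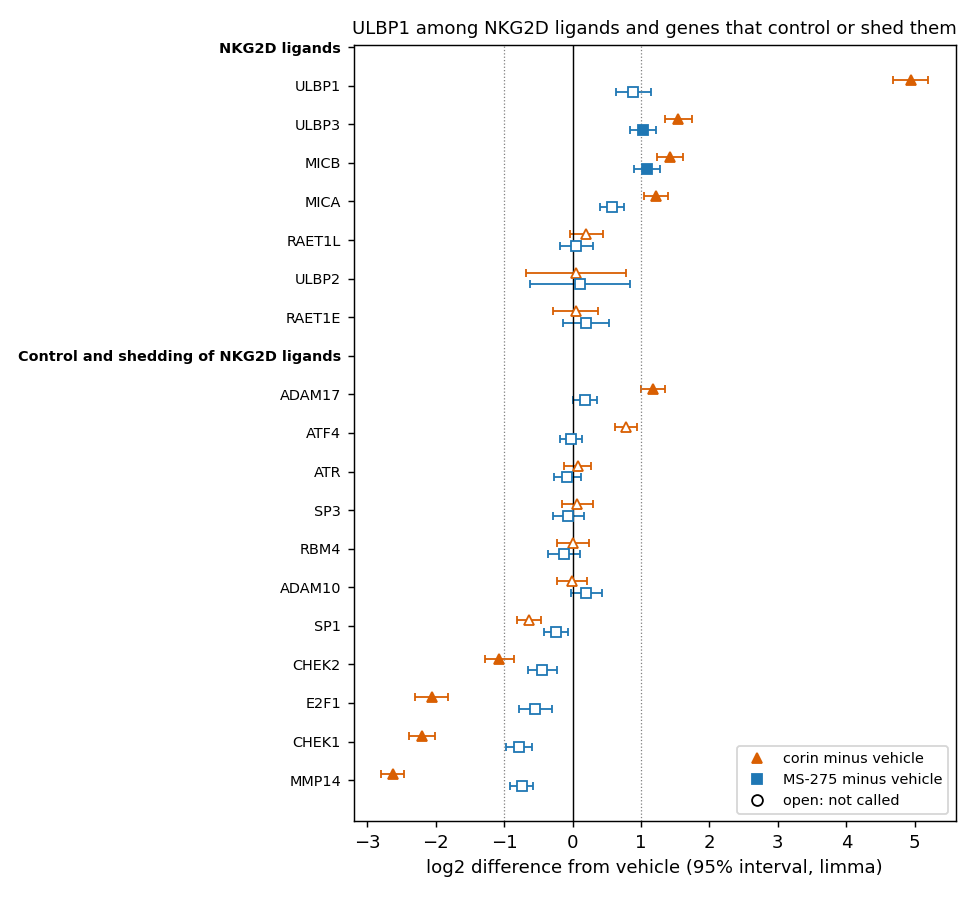
Log2 difference from vehicle, with 95% limma interval, of the 7 measured NKG2D ligands and of 11 genes that control or shed them, for corin (triangles) and MS-275 (squares), filled where called and with dotted lines at 2-fold. ULBP1 with corin lies at 4.94, beyond the interval of every other ligand, while ULBP2, RAET1E and RAET1L lie near 0 and MMP14, CHEK1 and E2F1 lie below -2.

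Of 14 genes known to control or shed NKG2D ligands 11 could be read. Corin raised 1 and lowered 4 (median -0.01), where 7.26% of all named genes were called higher and 7.61% lower, so the 1 raised is near the share of all genes. MS-275 moved 0 past the call, where 3.03% of all named genes were called higher and 0.39% lower. Against MS-275 corin raised 0 and lowered 3 (2.41% and 3.64% of all named genes). For MS-275 the limma p was under 0.05, unadjusted, in 1 upward and 5 downward. ATF4, a stress response factor that activates ULBP1 transcription, read 8.70, 8.68 and 8.71 with vehicle, 8.75, 8.66 and 8.63 with MS-275, and 9.48, 9.48 and 9.47 with corin. Only the corin arrays stood apart, by 0.78 or 1.72-fold (adjusted p 3.1e-06), which is below the fold of 2. The MS-275 difference of ATF4 was -0.02 with an interval of -0.18 to 0.14. ADAM17, a protease that releases MICA and MICB from the surface, rose 2.26-fold with corin, from a vehicle mean of 8.31 to 9.49. It exceeded MS-275 by 0.997 (adjusted p 2.3e-06), just under the fold, and this was called at a fold of 1.91 (2 SD of all probe differences between corin and MS-275) and without MS-275 replicate 3 (1.04) or corin replicate 3 (1.03). MMP14, a membrane metalloproteinase also tied to MICA shedding, read 9.07, 9.11 and 9.09 with vehicle, 8.34, 8.31 and 8.39 with MS-275, and 6.42, 6.42 and 6.53 with corin. It fell 6.19-fold with corin and was 1.67-fold lower with MS-275 (difference -0.74, adjusted p 2.5e-05), under the fold. The DNA damage checkpoint kinases CHEK1 and CHEK2 fell 4.61-fold and 2.10-fold with corin, and E2F1, a cell cycle factor, fell 4.16-fold. SP1, a GC box factor, differed by -0.64 with corin, and ADAM10, SP3, ATR and RBM4 by -0.01 to 0.07. RBM4 was dim, with means of 2.24, 2.12 and 2.25 for vehicle, MS-275 and corin, so a change of it could be missed. RNA of a protease does not report cleavage, which was not measured.

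Ligands of other receptors on NK and T cells, and adhesion molecules, were measured for 8 of 15 listed. Corin raised 2 (7.26% of all named genes) and MS-275 raised 1 (3.03%). Corin and MS-275 differed past the call in 0, beside 2.41% of all named genes higher and 3.64% lower. An unadjusted limma p under 0.05 between the 2 inhibitors was seen in 3 upward and 1 downward. Without the fold, 7 of the 8 were higher than vehicle with corin and 6 with MS-275 at a limma adjusted p under 0.05, beside 23.4% and 14.2% of all named genes, the medians being 0.49 and 0.32. CD70, the ligand of CD27, read 4.80, 5.12 and 5.02 with vehicle, 7.02, 7.08 and 6.91 with MS-275, and 7.04, 7.06 and 6.97 with corin. The arrays of both inhibitors lay together, 4.13-fold (corin) and 4.07-fold (MS-275) over vehicle, and the difference between them was 0.02 with an interval of -0.19 to 0.24. ICAM1, the ligand of the integrin LFA-1, read 9.40, 9.56 and 9.53 with vehicle, 10.1, 9.88 and 9.96 with MS-275, and 10.98, 10.97 and 10.94 with corin. It rose 2.76-fold with corin, differed by 0.48 with MS-275 (adjusted p 0.00126), and corin exceeded MS-275 by 1.98-fold, a difference that was called without MS-275 replicate 1 (1.04), after quantile normalization (1.005) and at the 2 SD fold of 1.91. The other 6 (PVR and NECTIN2, which bind DNAM-1, NCR3LG1, the ligand of NKp30, CD58, CD48 and CADM1) differed from vehicle by -0.22 to 0.67 with corin. CD48 was dim, with a vehicle mean of 3.23. CADM1 is read in these counts by its brighter probe. Its other probe, dim with a vehicle mean of 2.89, differed by 0.16 with corin and -0.07 with MS-275.

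CD274 had a log2 signal of 5.02, 4.65 and 4.95 on the vehicle arrays, 5.73, 5.89 and 6.09 with MS-275, and 7.04, 7.41 and 7.21 with corin. All 9 values were above the array median, and the 3 groups formed separate steps with gaps of 0.71 and 0.95 between their nearest arrays. The means were 4.87 ± 0.20, 5.90 ± 0.18 and 7.22 ± 0.19 (SD, n = 3). Corin exceeded vehicle by 2.35 (SE 0.133, interval 2.05 to 2.64), a 5.09-fold rise at a limma adjusted p of 4.2e-08. MS-275 exceeded vehicle by 1.03 (interval 0.74 to 1.32), or 2.04-fold, at a limma adjusted p of 0.000139. That call sat at the fold threshold, and the difference was 0.92 without vehicle replicate 2, 0.94 without MS-275 replicate 3 and 0.94 after quantile normalization, all below the fold of 2. Corin exceeded MS-275 by 1.32 (interval 1.02 to 1.61), or 2.49-fold, at a limma adjusted p of 1.3e-05.

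Of 16 checkpoint ligands and B7 family members listed 12 could be read, and with corin 2 rose (CD274 and ICOSLG), 1 fell (CD200) and 9 were not called, with a median of 0.04. These counts are read beside the 7.26% of all named genes called higher and 7.61% called lower, and 1 fall among 12 is near that share. With MS-275, CD274 was the only gene called (median 0.09), beside 3.03% of all named genes called higher and 0.39% lower. Against MS-275 corin raised CD274 and lowered CD200 (median 0.03), beside 2.41% called higher and 3.64% lower. PDCD1LG2, which encodes PD-L2, the second ligand of PD-1, lies next to CD274 in the genome and was dim, with means of 3.38, 3.23 and 3.32 for vehicle, MS-275 and corin. Its corin minus vehicle difference was -0.05 with an interval of -0.32 to 0.22, so that of the PD-1 ligands only CD274 was called.

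CD200, whose receptor restrains myeloid cells, moved the other way from CD274. It read 8.69, 8.79 and 8.80 with vehicle, 8.22, 7.75 and 8.002 with MS-275, and 5.46, 5.26 and 5.05 with corin. The corin arrays lay far below both other groups, a fall of 11.3-fold from vehicle (adjusted p 1.4e-09) and 6.67-fold from MS-275 (adjusted p 3.6e-08). MS-275 was lower than vehicle by 0.77 on the log2 scale at an adjusted p of 0.000986, under the fold. ICOSLG, the costimulatory ligand of ICOS, read 5.15, 4.83 and 4.71 with vehicle, 5.43, 5.04 and 4.73 with MS-275, and 5.83, 6.06 and 5.87 with corin. Its 2.04-fold rise with corin was at the threshold and was lost without vehicle replicate 2 (0.99), vehicle replicate 3 (0.93) or corin replicate 2 (0.96), and with arrays centred on their median (0.99). CD276 (B7-H3), CD47, VSIR, VTCN1, HHLA2, CD80, CD86 and FGL1 differed from vehicle by -0.14 to 0.44 with corin and by -0.08 to 0.36 with MS-275. Of these, VTCN1, HHLA2, CD80, CD86 and FGL1 were dim, with means below the array median in every group, so a change of them could be missed.

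**Figure D3:**
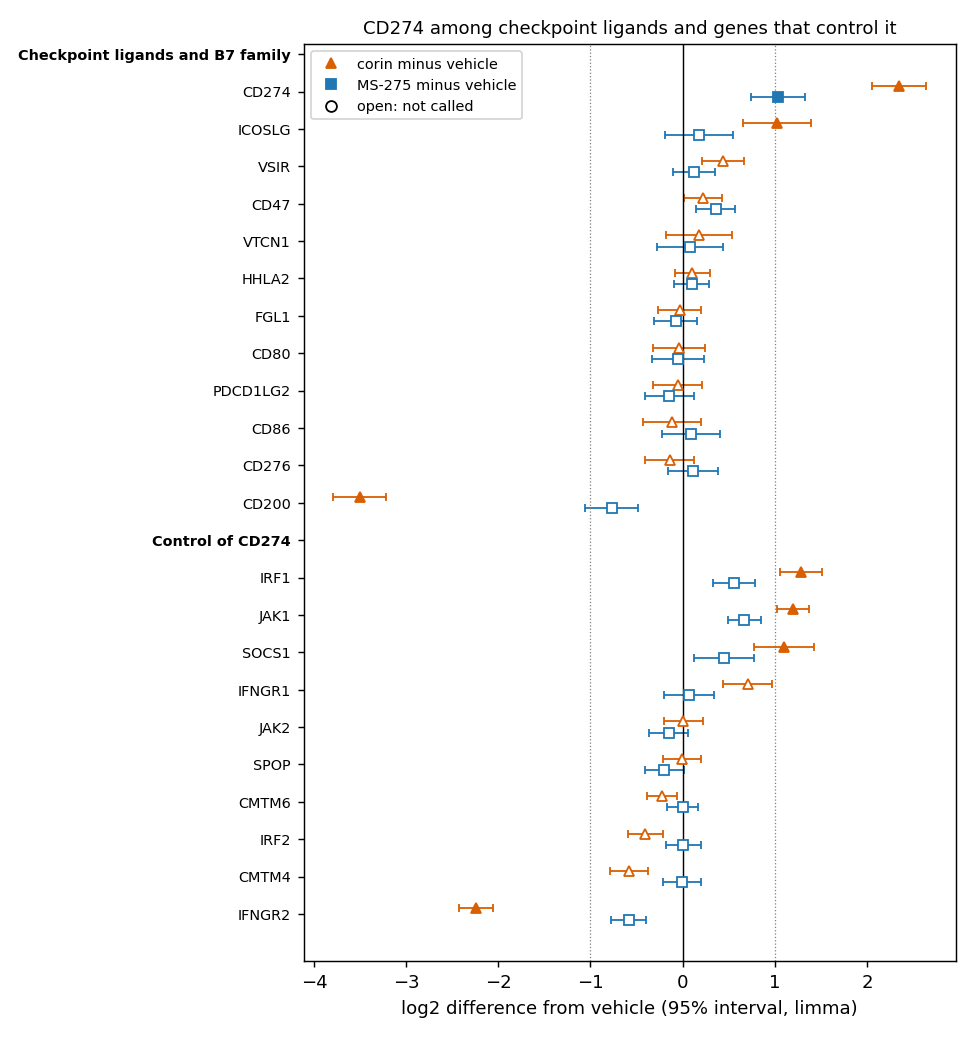
Log2 difference from vehicle, with 95% limma interval, of 12 checkpoint ligands and B7 family members and of 10 genes that control CD274, for corin (triangles) and MS-275 (squares), filled where called and with dotted lines at 2-fold. CD274 stands to the right of the other ligands with both inhibitors, CD200 and IFNGR2 lie far to the left with corin, and PDCD1LG2 lies near 0.

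Of 12 genes listed as acting on CD274, at its transcript through interferon gamma signaling or at its protein, 10 could be read. Corin raised 3 (JAK1, IRF1 and SOCS1) and lowered 1 (IFNGR2), with a median of 0.00, where 7.26% of all named genes were called higher and 7.61% lower. The 1 lowered of 10 is near that share. Without the fold, 4 of the 10 were higher with corin and 4 lower at a limma adjusted p under 0.05. Of all named genes 23.4% were higher by that measure, and the share lower was not counted. MS-275 moved 0 of the 10 past the call by limma, where 3.03% of all named genes were called higher and 0.39% lower. The limma p for MS-275 was under 0.05, unadjusted and adjusted, in 3 upward and 1 downward. At the adjusted p, 14.2% of all named genes were higher and 15.4% lower. IFNGR2, the signal-transducing chain of the interferon gamma receptor, read 7.71, 7.79 and 7.79 with vehicle, 7.12, 7.27 and 7.14 with MS-275, and 5.64, 5.47 and 5.46 with corin. It fell 4.73-fold from vehicle (difference -2.24, adjusted p 1.6e-09) and 3.15-fold from MS-275 (-1.65, adjusted p 6.2e-08), with no overlap of groups. IFNGR1, the ligand-binding chain, differed by 0.70 upward with corin (1.63-fold, adjusted p 0.000427) and by 0.07 with MS-275. Of the kinases that these chains carry, JAK1 rose 2.29-fold with corin, while JAK2 differed by 0.01 (interval -0.20 to 0.22). IRF1, the factor that acts on the CD274 promoter through the ISRE, rose 2.43-fold with corin, from a mean of 5.11 to 6.39, and read 5.67 with MS-275 (difference 0.56, adjusted p 0.00156). SOCS1, a feedback inhibitor of JAK signaling, rose 2.14-fold with corin, a call lost without vehicle replicate 3 (0.99). CMTM6 and CMTM4, membrane proteins that stabilize PD-L1 protein, differed by -0.23 and -0.58 with corin (limma adjusted p 0.0253 and 0.000243). SPOP, an adaptor for PD-L1 degradation, differed by -0.01 and IRF2 by -0.41 (limma adjusted p 0.00183 for IRF2). PD-L1 protein was not measured on these arrays.

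TAPBP had a log2 signal of 8.83, 8.72 and 8.94 on the vehicle arrays, 8.46, 8.43 and 8.49 with MS-275, and 7.06, 6.91 and 7.13 with corin. Corin arrays lay 1.30 below the lowest MS-275 array, and MS-275 arrays lay 0.23 below the lowest vehicle array. The means were 8.83 ± 0.11, 8.46 ± 0.03 and 7.03 ± 0.12 (SD, n = 3). Corin minus vehicle was -1.80 (SE 0.0902, interval -1.995 to -1.60), a 3.47-fold fall at a limma adjusted p of 1.5e-08. MS-275 minus vehicle was -0.37 (interval -0.57 to -0.17), which is 1.29-fold lower at a limma adjusted p of 0.00887 and below the fold of 2. Corin minus MS-275 was -1.43 (interval -1.62 to -1.23), a 2.69-fold lower signal at a limma adjusted p of 3.2e-07.

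The values above are those of the TAPBP probe with the highest mean (probe 17040221), and the other 4 probes gave the same order of groups. Across the 5 probes the group means ran from 8.49 to 8.83 with vehicle, from 8.15 to 8.46 with MS-275 and from 6.79 to 7.03 with corin. Corin minus vehicle ran from -1.80 to -1.71, MS-275 minus vehicle from -0.37 to -0.34 and corin minus MS-275 from -1.43 to -1.36. The probes are not independent, since all read the same RNA and 2 of the 5 have identical values on every array.

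**Figure D4:**
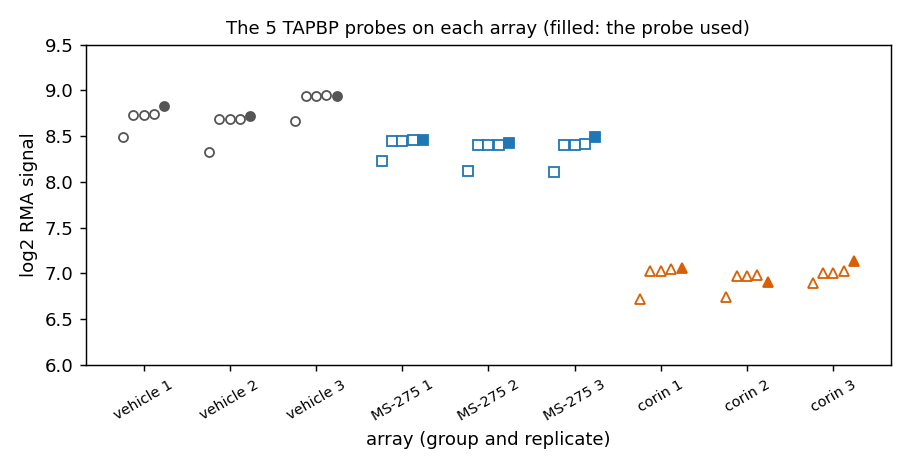
Log2 RMA signal of the 5 TAPBP probes on each of the 9 arrays, with the probe used for the gene filled and the others open. On every corin array all 5 probes lie between 6.72 and 7.13, below all 5 on every vehicle and MS-275 array.

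Of 26 genes listed for MHC class I and peptide loading 9 could be read, and the others were not analysed here. Corin lowered 1 of the 9, TAPBP itself, and raised 0 (median -0.28), beside 7.61% of all named genes called lower and 7.26% higher. The 1 lowered is near the share called lower. Without the fold, 5 of the 9 were lower with corin and 1 was higher at a limma adjusted p under 0.05. Of all named genes 23.4% were higher in this way, and the share lower was not counted. MS-275 moved 0 (median -0.17, limma p under 0.05, unadjusted, in 3 downward and 0 upward), beside 3.03% called higher and 0.39% lower. Against MS-275 corin lowered 1 and raised 0 (median -0.12), beside 3.64% called lower and 2.41% higher. TAPBPL, which encodes TAPBPR, the tapasin relative that edits peptides on MHC class I, read 5.35, 5.51 and 5.18 with vehicle, 4.87, 4.97 and 5.00 with MS-275, and 4.50, 4.34 and 4.34 with corin. Its groups did not overlap, and its corin minus vehicle difference of -0.95 (adjusted p 7.1e-06) was just under the fold of 2. It passed the call without vehicle replicate 3 (-1.04) or corin replicate 1 (-1.004), after quantile normalization (-1.002) and at the 2 SD fold of 1.91. ERAP1, which trims peptides in the endoplasmic reticulum, differed by -0.59 with corin (adjusted p 0.000108) and by -0.12 with MS-275. B2M, the light chain shared by all MHC class I molecules, differed in the other direction, by 0.58 with corin (adjusted p 0.00078), and by 0.18 with MS-275. These B2M values are those of its brighter probe. Its other probe, with a vehicle mean of 5.51, differed by -0.08 with corin and -0.12 with MS-275, so the rise was not shared. The chaperones CALR and CANX, which assist class I folding, differed by 0.19 and -0.28 with corin, and ERAP2, RFXANK and RFXAP by -0.20, -0.46 and 0.22. ERAP2 was dim, with a vehicle mean of 3.92. Of the MHC class II list only CTSS, the protease that cleaves the invariant chain, could be read of 14. It read 6.41, 6.50 and 6.56 with vehicle, 6.02, 5.96 and 6.10 with MS-275, and 4.44, 4.38 and 4.04 with corin, a 4.60-fold fall with corin.

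**Figure D5:**
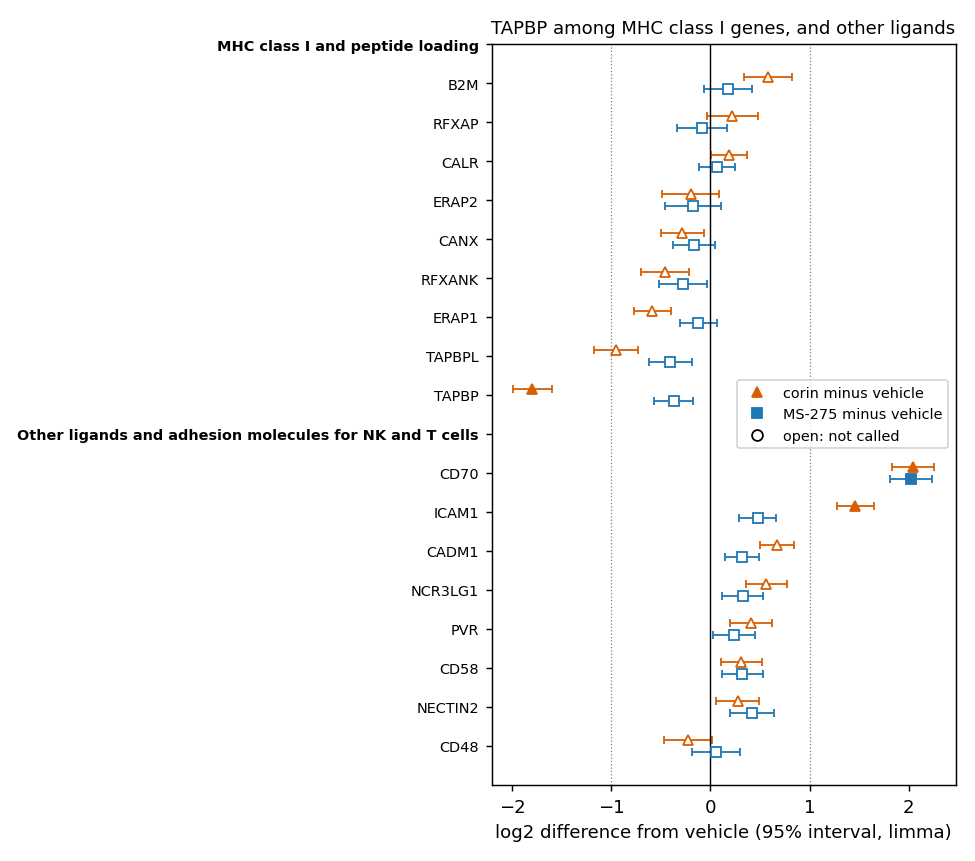
Log2 difference from vehicle, with 95% limma interval, of 9 MHC class I and peptide loading genes and of 8 other ligands and adhesion molecules, for corin (triangles) and MS-275 (squares), filled where called and with dotted lines at 2-fold. TAPBP is the only filled point of the upper list, B2M lies to the right of 0, and CD70 has its corin and MS-275 points at about the same place.

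Over these immune lists together, without the cell type markers, 58 of 105 genes could be read. Corin against vehicle raised 12 and lowered 8, MS-275 against vehicle raised 4 and lowered 0 (also 0 with a one-way model without moderation), and corin against MS-275 raised 2 (ULBP1 and CD274) and lowered 7. Of all named genes 7.26% and 7.61%, 3.03% and 0.39%, and 2.41% and 3.64% were called higher and lower in these comparisons, and the 58 genes include the 3. The 4 genes raised by MS-275 were ULBP3, MICB, CD70 and CD274. The genes lowered by corin relative to MS-275 were CD200, IFNGR2, CHEK1, E2F1, MMP14, TAPBP and CTSS.

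The genes on either side of each of the 3 were read by their order in the RefSeq table. Of the 3 nearest measured genes on each side of ULBP1, all but the antisense gene RAET1E-AS1 carry the names of ligand family members. ULBP3 rose with corin, RAET1K rose by 1.01, just past the fold, from a dim level of 2.28, and ULBP2, RAET1E, RAET1E-AS1 and RAET1L were not called. Around CD274, RLN1, RLN2, INSL4, PDCD1LG2, RIC1 and ERMP1 were called in none of the 3 comparisons, and the largest difference was that of RIC1, 0.89 with corin. Around TAPBP, RGL2 (-1.31) and KIFC1 (-2.53) fell with corin against vehicle, DAXX (-0.89) and WDR46 (-0.67) were lower without reaching the fold, and PFDN6 and ZBTB22 differed by -0.15 and -0.08. With 7.26% of all named genes called higher and 7.61% lower, counts among 6 neighbours are too small to compare the 3 places.

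The named genes whose log2 signal followed each of the 3 most closely were ranked by Pearson's r over the 9 arrays, among 2320 other genes whose group means span at least 1 log2 unit. The 9 points share arrays and fall into 3 treatment groups, so r mostly reads the pattern of the 3 means, and it is given as a description. For ULBP1 the closest were SESN2, LRP1, MAP2K3, ZNF280A and PLK3, each with r = 0.998, and 71 genes reached 0.99. SESN2 (sestrin 2) differed from vehicle by 3.81 with corin and 0.65 with MS-275. For CD274 they were ZNF699 (r = 0.997), PTGS2, PMAIP1, HDAC5 and IRS2 (each 0.991), and only 8 genes reached 0.99. PTGS2, the inducible cyclooxygenase, differed by 3.73 with corin and 1.47 with MS-275, which is the same stepwise order as CD274. For TAPBP they were MOB3B (r = 0.998), DENND2D, AURKB, CKAP2L (each 0.997) and SMYD2 (0.996), and 94 genes reached 0.99. AURKB, a mitotic kinase, differed by -3.44 with corin and -0.85 with MS-275.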

How the data were processed

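WM983B cells were profiled on Affymetrix Human Gene 2.0 ST arrays, 3 per group, called biological triplicates in the series design. RMA extraction and normalization in Partek Genomics Suite v6.6 were done by the authors, who deposited 53617 log2 values for each array. The processing notes also name hg19. Those log2 values were used as deposited, with no filter on dim probes. A symbol was found for 16098 probes in the platform annotation, 0 had several and 37519 were without one here. All 16098 were matched to RefSeq by gene ID. Of the 14884 named genes 779 had several probes, and the one with the highest mean stood for the gene. This choice affects TAPBP and MICB, and also B2M, CADM1, CHEK2 and the immune cell marker LYZ. Precision is limited by the number of arrays. Within a group the SD of a named gene had a median of 0.104 (vehicle), 0.103 (MS-275) and 0.135 (corin).

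Comparisons used limma 3.58.1 under R 4.3.3 (lmFit and eBayes, all 9 arrays, Benjamini-Hochberg over the named genes). A call needed a fold of at least 2 and an adjusted p under 0.05. Intervals are 95%. An exact permutation test of 3 against 3 arrays cannot go below p = 0.1 and was not used. The script was tested on simulated data. The 3 genes and the lists were chosen with earlier results of these data known, so counts over a list are descriptions. Named genes were the 3, all called members of a list, all measured NKG2D ligands, checkpoint ligands and MHC class I genes, the 5 genes most like each of the 3, and the 3 nearest measured genes on each side. List members that were not called and are named beside these were chosen after their values were seen. Alternatives tried were a block on replicate number, only the 2 groups compared, a one-way model without moderation, trended and robust eBayes, a fold at 2 SD, brighter genes only, a gene's probes averaged, all probes, median centring, quantile normalization and each array left out in turn. RefSeq coordinates are of GRCh38.p14, a later build than hg19, and are given for the promoters alone. Python 3.11.15 with matplotlib 3.10.9 drew the figures.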

Additional observations from a re-analysis of the deposited data

How the results depend on the processing

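The 3 genes kept their direction in all 3 comparisons under the 19 alternatives, 10 other settings and 9 with 1 array left out, except that ULBP1 had no value among brighter genes only, where it is too dim to enter. Corin against vehicle and against MS-275 stayed called for all 3 genes, with ranges of 4.90 to 5.02 for ULBP1, 2.24 to 2.44 for CD274 and -1.85 to -1.70 for TAPBP against vehicle. CD274 with MS-275 was 0.94 (adjusted p 0.000337) after quantile normalization, and 0.92 to 1.12 with 1 array left out (adjusted p 0.000146 to 0.000928), so 7 of those 9 fits kept the call. ULBP1 with MS-275 ranged from 0.83 to 1.01 with 1 array left out (adjusted p 0.000112 to 0.0011), and 1 of the 9 called it. Over the immune lists, genes called higher with corin than with MS-275 numbered 2, and were 4 at a fold of 1.91 (2 SD of the probe differences), 1 among brighter genes, where ULBP1 is missing, and 2 to 4 with 1 array left out. Those called higher with MS-275 than with vehicle numbered 4, and 2 to 5 with 1 array left out, the 2 being without vehicle replicate 2. Over all named genes, those called lower with MS-275 went from 58 to 103 at the fold of 1.91, and those higher with corin than with MS-275 went from 358 to 235 among brighter genes, where fewer genes are tested. With the replicate block the corin minus vehicle differences stayed 4.94, 2.35 and -1.80 (adjusted p 6.3e-09, 7.6e-07 and 1.6e-07), and the block changed no call of the 3 genes and no list count. Between samples with the same number, deviations from the group means correlated at -0.06 to 0.02, with 0 of 9 pairs over 0.1. The labels do not say whether such samples came from the same experiment, and these correlations cannot settle it. Signals near background, such as ULBP1 without corin, limit what a fold can show.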
